A study of Homo sapiens with 4 samples.

Results

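The 35 genes described here encode the folding machinery of the endoplasmic reticulum (ER), the sensors of ER stress, the ER-associated degradation (ERAD) pathway and the translocation and export machinery. They were taken by symbol, through GENCODE release 29, from the 58174 genes of the deposited tables. All 35 were found, and 35 of the 35 passed the filter on low counts that left 18984 tested genes. RNA was sequenced from 293FT, a fast-growing human embryonic kidney line of the 293 family that expresses SV40 large T antigen. The cells carried mutant NIPBL (NIPBLmut, 2 libraries) or wild-type NIPBL (NIPBLwt, 2 libraries), NIPBL being the gene of the cohesin loader. Both genotypes were grown in the same serum-containing medium, and the labels name no agent that induces ER stress. The labels do not give the kind of mutation, the number of clones or whether the libraries came from separate cultures, and p-values therefore reflect only how far these libraries lie apart, which may be technical.

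Proteins of the secretory pathway enter the ER through the SEC61 channel, fold with the help of chaperones and disulfide isomerases, and leave in COPII vesicles. Proteins that fail to fold are recognised by lectins, pulled back through the membrane and degraded by the proteasome, which is ERAD. When unfolded proteins accumulate, the unfolded protein response is started by the membrane sensors ATF6, IRE1 (gene ERN1) and PERK (gene EIF2AK3). ATF6 is cut in the Golgi by the proteases MBTPS1 and MBTPS2 to release a transcription factor, IRE1 splices the XBP1 mRNA, and PERK phosphorylates the translation factor eIF2. Cleaved ATF6 and spliced XBP1 act on ER stress elements in promoters of chaperone and ERAD genes, whereas PERK acts through the factor ATF4. Gene-level values count XBP1 mRNA whether spliced or not, and they hold no measure of ATF6 cleavage or of PERK activity.

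ER stress elements were looked for in the promoters, since cleaved ATF6 and spliced XBP1 are known to act through them. RefSeq promoter windows (GRCh38.p14) were found for 31 of the 35 genes, the exceptions being DERL1, PDIA3, DERL3 and SEC24D, and the 250 bases before each start were searched on both strands. The motifs were ERSE (CCAAT, 9 bases of any kind, CCACG), ERSE-II (ATTGG, any base, CCACG) and the XBP1-binding motif UPRE (TGACGTGG). An exact ERSE stood in 7 of the 31 genes (CALR, CANX, CRELD2, ERO1B, HSP90B1, PDIA6 and XBP1), against 26 of 35116 windows (0.074%). ERSE-II stood in 3 of the 31 (HERPUD1, HYOU1 and SDF2L1), against 18 windows (0.0513%). UPRE stood in HYOU1 alone of the 31, where it overlaps an ERSE-II, against 215 windows (0.612%). Genes were counted if any of their windows matched, whereas the shares over all are per window and include the windows of these genes. The shares were not compared by a test. A match describes these letters and is not evidence of binding. The windows of 6 of the 10 genes are shown because, as given further on, these genes lay on opposite sides when the 2 wild-type libraries were compared. Capitals mark ERSE, ERSE-II or UPRE, on either strand, and each run is written 5′ to 3′ on the strand of its gene, without the bases inside the GENCODE gene.
XBP1 (chr22:28800598-28800819, minus strand): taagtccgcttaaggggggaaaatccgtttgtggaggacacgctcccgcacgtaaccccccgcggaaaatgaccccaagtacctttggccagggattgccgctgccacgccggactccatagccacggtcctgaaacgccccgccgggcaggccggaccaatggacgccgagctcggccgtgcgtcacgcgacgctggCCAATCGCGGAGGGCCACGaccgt
HERPUD1 (chr16:56931892-56932047, plus strand): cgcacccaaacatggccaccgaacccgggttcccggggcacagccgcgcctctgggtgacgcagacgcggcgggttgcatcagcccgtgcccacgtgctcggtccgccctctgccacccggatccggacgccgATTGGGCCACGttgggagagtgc
ERO1B (chr1:236281986-236282208, minus strand): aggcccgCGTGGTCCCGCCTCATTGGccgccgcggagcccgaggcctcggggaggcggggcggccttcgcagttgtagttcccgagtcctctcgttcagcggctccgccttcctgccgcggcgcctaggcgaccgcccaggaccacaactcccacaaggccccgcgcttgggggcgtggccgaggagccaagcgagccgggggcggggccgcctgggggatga
HYOU1 (chr11:119057206-119057455, minus strand): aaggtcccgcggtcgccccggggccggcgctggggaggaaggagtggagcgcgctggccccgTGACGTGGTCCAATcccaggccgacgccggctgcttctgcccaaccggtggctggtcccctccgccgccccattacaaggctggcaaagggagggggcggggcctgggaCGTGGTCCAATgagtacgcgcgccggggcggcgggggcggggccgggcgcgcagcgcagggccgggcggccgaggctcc
SDF2L1 (chr22:21642052-21642260, plus strand): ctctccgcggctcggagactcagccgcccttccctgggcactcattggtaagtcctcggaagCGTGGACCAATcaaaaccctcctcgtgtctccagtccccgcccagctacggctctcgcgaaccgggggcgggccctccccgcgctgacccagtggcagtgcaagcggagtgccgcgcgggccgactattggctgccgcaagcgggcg
CALR (chr19:12938359-12938577, plus strand): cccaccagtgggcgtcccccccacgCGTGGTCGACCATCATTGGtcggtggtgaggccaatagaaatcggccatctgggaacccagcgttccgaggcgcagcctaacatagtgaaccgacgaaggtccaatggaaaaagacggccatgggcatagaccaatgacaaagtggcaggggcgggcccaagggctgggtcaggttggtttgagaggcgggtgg
The ERSE sites of the other 4 genes are given alone, on the strand of the gene. HSP90B1 and CANX hold 2 each, and the 2 of CANX have the same letters.
HSP90B1 site A: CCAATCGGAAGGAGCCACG
HSP90B1 site B: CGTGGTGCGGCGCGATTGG
CANX: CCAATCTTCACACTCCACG
CRELD2: CGTGGCGAACTCGGATTGG
PDIA6: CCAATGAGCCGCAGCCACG

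The libraries held between 31545743 and 33161120 expected counts. The chi-square per gene was 4.0 within the mutant pair and 47.2 within the wild-type pair, where 1 would be counting noise. NIPBL itself had 61.0 and 62.0 CPM (counts scaled to a common library total with edgeR's TMM factors) in mutant libraries, against 41.8 and 44.5 in wild-type libraries, and was not called (adjusted p = 0.057). As the kind of mutation is not given, its level does not check the labels. The 8 marker genes of the 293 line summed to 326 and 308 TPM (transcript abundance per length, scaled to a fixed total) in mutant and 373 and 403 TPM in wild-type libraries. Fibroblast markers (6 genes, 1 of them at 0 throughout) summed to 7.47 and 8.18 TPM in mutant and 2.90 and 2.16 TPM in wild-type libraries. Blood markers (3 genes, 2 at 0 throughout) reached at most 0.01 TPM, and endothelial markers (3 genes) summed to 0.45 and 0.12 TPM in mutant and 0.19 and 0.15 TPM in wild-type libraries. The part of these differences in the results below was not tested.

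Of the 35 genes, ATF6 and ERLEC1 rose and DERL3 fell in NIPBL mutant cells. The test was edgeR's quasi-likelihood test with Benjamini-Hochberg adjustment over all tested genes, called under 0.05. By the same rule 3.71% of all tested genes were called higher and 2.1% lower, so 2 and 1 of 35 are near the background. At an unadjusted p under 0.05 stood 13 of the 35, against 29.8% of all tested genes, and DESeq2 called 6 of the 35, against 13.2%. The median log2 fold change of mutant over wild type was -0.06 over the 35 genes and -0.01 over all tested genes; with total counts the values were 0.12 and 0.17. It was above 0 at 16 of the 35 genes (49.6% of all tested genes). In 15 of the 35 both mutant libraries lay above both wild-type libraries (32.3% of all genes), in 13 both lay below (30.8%), and 7 overlapped. Scaling by total counts changed this split to 16 above (44.9% of all genes), 7 below (19.4%) and 12 overlapping, again near the background. On log2(TPM + 1) the median of all tested genes was 0.12, so directions on these scales are read relative to those shifts.

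**Figure D1:**
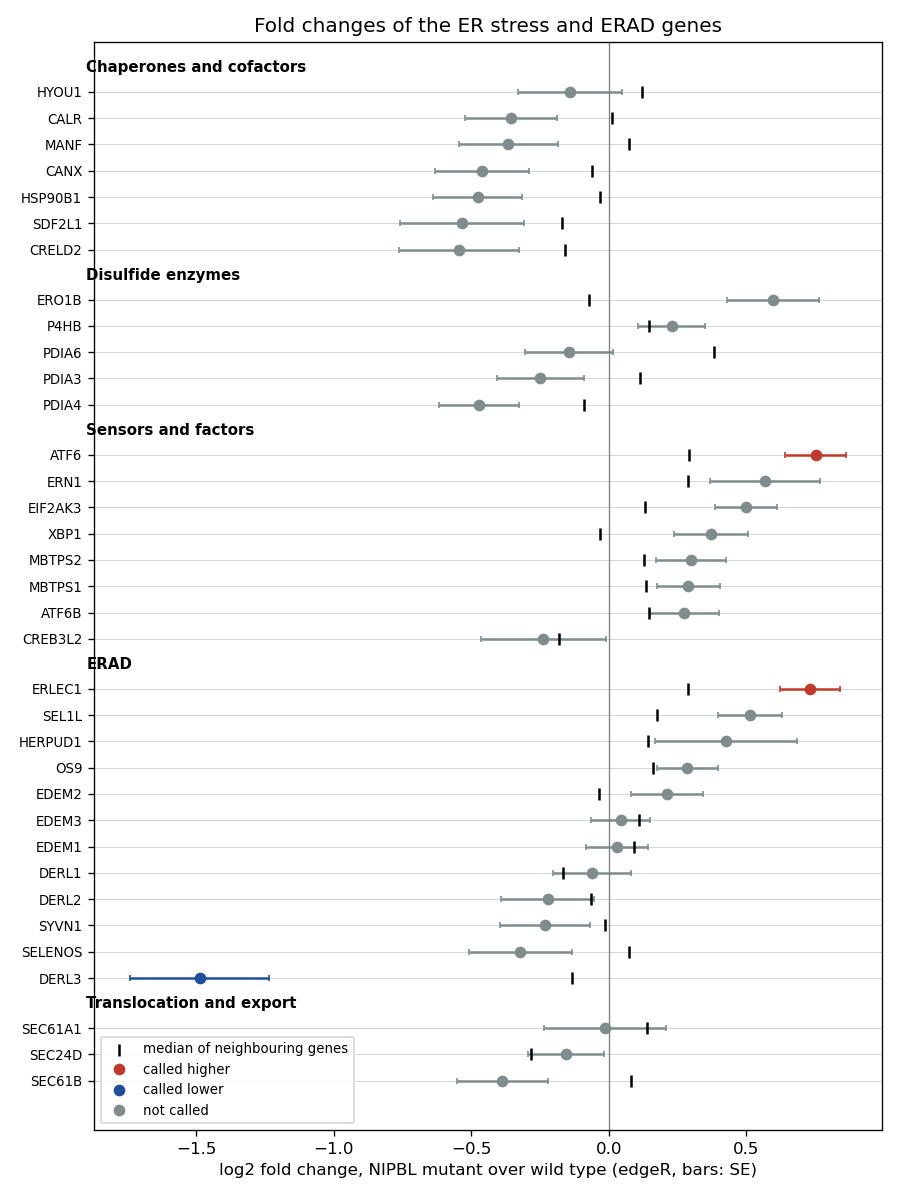
Log2 fold change of mutant over wild type for each of the 35 genes, by role (points, edgeR; bars, standard error; colours, call; black ticks, median of the neighbours, 25 tested protein-coding genes to each side). ATF6 at 0.75 and ERLEC1 at 0.73 lie furthest right and DERL3 at -1.49 furthest left.

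The sensors and transcription factors were the group in which most genes lay higher in the mutant libraries. ATF6 (ENSG00000118217, chromosome 1, 161766294 to 161964070, plus strand), the membrane-bound factor cleaved under ER stress, had 134 and 141 CPM in mutant and 83.7 and 80.1 CPM in wild-type libraries. The genotypes did not overlap, and each pair was close. ATF6 rose by a log2 fold change of 0.75 (SE 0.11, edgeR adjusted p = 0.0335). Its chromosomal neighbours, taken as 25 tested protein-coding genes to each side, had a median of 0.29. With that neighbourhood median removed the value was 0.46 and no longer called (adjusted p = 0.0908). Leaving out mutant replicate 1 (0.78, adjusted p = 0.181) or 2 (0.71, adjusted p = 0.282) also ended the call, when the fold was about as large but the spread came from the wild-type pair alone.

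EIF2AK3, the PERK kinase, had 48.5 and 50.1 CPM in mutant and 36.2 and 33.6 CPM in wild-type libraries. Both mutant libraries stood above, with a log2 fold change of 0.50 (SE 0.11), but the gene was not called by edgeR (adjusted p = 0.0615). DESeq2 called it (0.49, adjusted p = 0.0468), as did edgeR with total counts (0.67, adjusted p = 0.0435) and with effective length offsets (0.69, adjusted p = 0.0396). With the neighbourhood median removed it was 0.37 (adjusted p = 0.134). The effective length of EIF2AK3, RSEM's mean usable transcript length weighted over isoforms, was 2838 and 2941 bases in mutant and 3263 and 3355 bases in wild-type libraries. Per length, the levels were further apart, at 14.9 and 14.8 TPM in mutant and 8.63 and 7.44 TPM in wild-type libraries. The TPM scale itself was shifted, with a median of 0.12 over all tested genes on log2(TPM + 1). How much of the wider gap came from length was not tested.

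ERN1, the IRE1 kinase and nuclease, had 17.4 and 17.7 CPM in mutant and 13.9 and 9.81 CPM in wild-type libraries. The mutant libraries were nearly equal while wild-type replicate 2 lay 1.41-fold below replicate 1, and the log2 fold change of 0.57 (SE 0.20) was not called (adjusted p = 0.135). It was 0.32 with effective length offsets (adjusted p = 0.426) and 0.28 with the neighbourhood median removed (adjusted p = 0.415). XBP1, the factor whose mRNA IRE1 splices, had 206 and 209 CPM in mutant and 175 and 146 CPM in wild-type libraries. It too lay above in both mutant libraries, at a log2 fold change of 0.37 (SE 0.13, adjusted p = 0.142), also not called. Its promoter holds the ERSE shown above.

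The ATF6 paralogue ATF6B and the proteases that cut ATF6 showed smaller differences in the same direction. ATF6B had 26.2 and 26.5 CPM in mutant and 23.1 and 20.4 CPM in wild-type libraries. The site-1 protease gene MBTPS1 had 189 and 191 CPM in mutant and 163 and 148 CPM in wild-type libraries. The site-2 protease gene MBTPS2 had 28.3 and 25.5 CPM in mutant and 22.8 and 20.9 CPM in wild-type libraries. Their log2 fold changes of 0.27, 0.29 and 0.30 were not called (adjusted p from 0.168 to 0.212). CREB3L2, an ATF6-related membrane factor, was the exception, at 10.8 and 14.0 CPM in mutant and 17.0 and 12.2 CPM in wild-type libraries. It was the 1 gene of the 35 whose mutant libraries lay at least 1.25-fold apart (15.7% of all tested genes), and its genotypes overlapped.

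In all, 7 of the 8 sensor and factor genes had both mutant libraries above both wild-type libraries, on the CPM, total-count and TPM scales. The share of all tested genes in that position was 32.3% in CPM, 44.9% with total counts and 44.7% in TPM. In TPM the margin of ERN1 was narrow, with 3.82 in mutant replicate 1 and 3.77 in wild-type replicate 1. While 3.71% of all tested genes were called higher, this held for 1 of the 8 sensor and factor genes. Their median log2 fold change was 0.33, and it was 0.42 without wild-type replicate 1 and 0.24 without wild-type replicate 2. Their summed level was 218 and 226 TPM in mutant and 169 and 137 TPM in wild-type libraries.

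**Figure D2:**
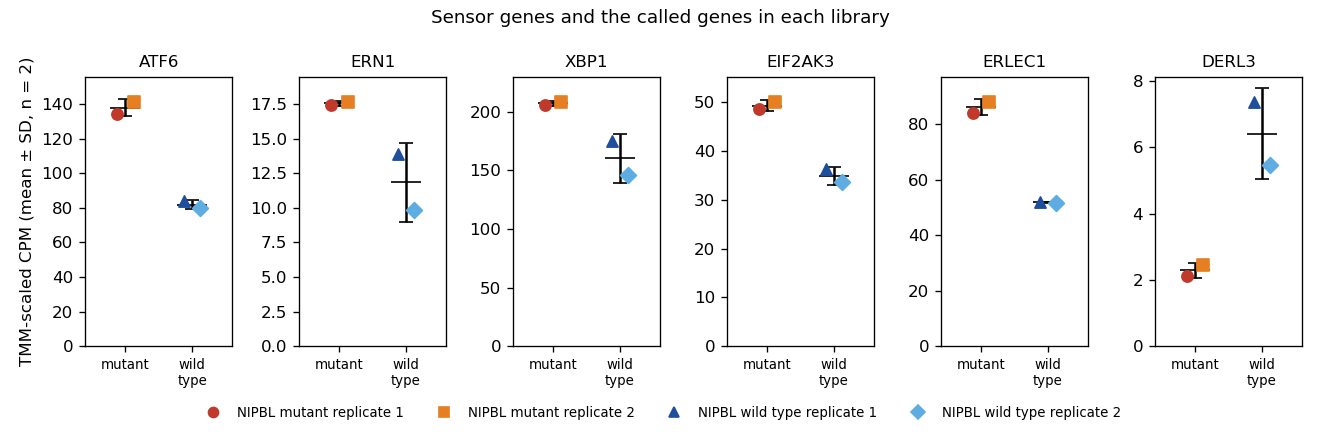
TMM-scaled CPM of the sensors ATF6, ERN1 and EIF2AK3, of XBP1 and of ERLEC1 and DERL3 in each library (vertical axes from 0; symbols, libraries; lines and bars, mean and SD, n = 2). The mutant libraries lie above both wild-type libraries in the first 5 panels and below them for DERL3.

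None of the 7 ER chaperones and cofactors was called. In CPM both mutant libraries lay below both wild-type libraries at 6 of them, while HYOU1 overlapped. HSP90B1, the ER-resident HSP90, had 781 and 760 CPM in mutant and 924 and 1221 CPM in wild-type libraries. The lectin chaperone CANX had 1123 and 1111 CPM in mutant and 1299.7 and 1776 CPM in wild-type libraries. Its soluble relative CALR had 608 and 590 CPM in mutant and 654 and 879.97 CPM in wild-type libraries. For all 3 genes both mutant libraries lay below, and the distance to wild-type replicate 2 was far larger than that to replicate 1. Their log2 fold changes were -0.48 (SE 0.16, adjusted p = 0.125), -0.46 (SE 0.17, adjusted p = 0.147) and -0.36 (SE 0.17, adjusted p = 0.220).

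Smaller chaperone cofactors followed the same order of libraries. SDF2L1, a cofactor of the ER HSP70 system, had 26.0 and 24.0 CPM in mutant and 28.3 and 44.1 CPM in wild-type libraries. CRELD2, an ER stress-inducible protein, had 49.8 and 43.7 CPM in mutant and 54.2 and 82.1 CPM in wild-type libraries. MANF, an ER-resident and secreted stress factor, had 81.2 and 83.1 CPM in mutant and 88.4 and 123 CPM in wild-type libraries. The groups did not overlap for these genes, whose log2 fold changes were -0.53, -0.54 and -0.37, and the gap between the wild-type libraries exceeded the gap from wild-type replicate 1 to the mutant libraries. HYOU1, the large HSP70-like chaperone whose promoter holds 2 ERSE-II, had 217 and 210 CPM in mutant and 194 and 277 CPM in wild-type libraries, so that the mutant libraries lay between the wild-type ones.

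The size of the chaperone differences depended on wild-type replicate 2. The median log2 fold change of the 7 genes was -0.46, and it was -0.68 without wild-type replicate 1 and -0.18 without wild-type replicate 2. Both mutant libraries were below both wild-type libraries at 6 of the 7 in CPM (30.8% of all tested genes), at 4 of the 7 with total counts (19.4%) and at 2 of the 7 in TPM (16.8%). On the TPM scale the 7 genes summed to 1267 and 1226 in mutant and 1250.1 and 1607 in wild-type libraries, so that wild-type replicate 1 lay between the mutant libraries.

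The disulfide enzymes split. PDIA4, an isomerase of the ATF6 arm, had 480.1 and 449 CPM in mutant and 575 and 714 CPM in wild-type libraries, and PDIA3, which works with the lectin chaperones, had 316 and 303 CPM in mutant and 319 and 417 CPM in wild-type libraries. Both lay below in the mutant libraries, at log2 fold changes of -0.47 (SE 0.14, adjusted p = 0.106) and -0.25 (SE 0.16, adjusted p = 0.341), neither called. PDIA3 has a transcribed pseudogene copy, PDIA3P1, at 9.56 and 8.70 CPM in mutant and 7.06 and 8.40 CPM in wild-type libraries, and how reads were divided between them was not tested. PDIA6 overlapped, at 587 and 557 CPM in mutant and 548 and 719 CPM in wild-type libraries. P4HB, which also serves as a subunit of collagen prolyl hydroxylase, lay above in both mutant libraries, at 314 and 307 CPM in mutant and 248 and 283 CPM in wild-type libraries (log2 fold change 0.23, SE 0.12, adjusted p = 0.269).

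ERO1B, the oxidase that recharges the isomerases, ran the other way between the wild-type libraries. It had 37.6 and 38.9 CPM in mutant and 28.98 and 21.6 CPM in wild-type libraries. The log2 fold change of 0.60 (SE 0.17) was not called by edgeR (adjusted p = 0.0920), but was by DESeq2 (0.59, adjusted p = 0.0444). Over the 5 disulfide enzymes the median was -0.15, and it was -0.35 without wild-type replicate 1, 0.06 without wild-type replicate 2 and 0.03 with total counts.

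Among the 12 ERAD genes, ERLEC1 rose and DERL3 fell, where 3.71% of all tested genes were called higher and 2.1% lower. ERLEC1 (ENSG00000068912, chromosome 2, 53787044 to 53818819, plus strand), a lectin that hands misfolded glycoproteins to the ERAD complex, had 84.0 and 88.0 CPM in mutant and 52.0 and 51.6 CPM in wild-type libraries. Each pair was tight and the genotypes were well separated. ERLEC1 rose by a log2 fold change of 0.73 (SE 0.11, edgeR adjusted p = 0.0335), and its neighbourhood median was 0.29. With that median removed it was 0.45 and not called (adjusted p = 0.0913). Without mutant replicate 1 it was 0.76 (adjusted p = 0.181) and without mutant replicate 2 it was 0.70 (adjusted p = 0.279), so the fold stayed about as large while the spread came from the wild-type pair alone. ERLEC1 overlaps ASB3 on the other strand, which had 51.8 and 48.2 CPM in mutant and 38.9 and 42.3 CPM in wild-type libraries. The strand setting of the counting is not given in the sources used here, so the reads of these overlapping genes may not have been told apart. The same holds for other members with overlaps on the other strand, among them CRELD2 with ALG12, DERL1 with TBC1D31, DERL2 with MIS12 and SEC61A1 with RUVBL1.

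DERL3 (ENSG00000099958, chromosome 22, 23834503 to 23839128, minus strand), a member of the derlin family of ERAD channels, rested on few reads. It had 72 and 85 counts in mutant and 229 and 163 counts in wild-type libraries, which is 2.13 and 2.44 CPM in mutant and 7.38 and 5.46 CPM in wild-type libraries. Both mutant libraries were below both wild-type libraries. The log2 fold change of -1.49 (SE 0.25) was called (edgeR adjusted p = 0.0399). The call was lost with total counts (-1.33, adjusted p = 0.0583), on log2(TPM + 1) (-0.93, adjusted p = 0.0530) and with the neighbourhood median removed (-1.35, adjusted p = 0.0594). It was also lost without mutant replicate 1 (-1.40, adjusted p = 0.163) or mutant replicate 2 (-1.59, adjusted p = 0.118), where the fold stayed about as large and the spread came from the wild-type pair alone. DERL3 overlaps SMARCB1 on the other strand, at 58.3 and 59.5 CPM in mutant and 61.1 and 70.4 CPM in wild-type libraries. Its paralogues stood elsewhere. DERL1 had 71.8 and 75.2 CPM in mutant and 68.8 and 84.6 CPM in wild-type libraries, and DERL2 had 45.8 and 47.1 CPM in mutant and 46.1 and 62.3 CPM in wild-type libraries, so both overlapped.

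SEL1L, the scaffold of the central ERAD ubiquitin ligase, had 116 and 129 CPM in mutant and 85.8 and 85.7 CPM in wild-type libraries. The groups were separate and the log2 fold change was 0.51 (SE 0.12), but edgeR did not call it (adjusted p = 0.0610). It was called by DESeq2 (0.50, adjusted p = 0.0237) and with total counts (0.68, adjusted p = 0.0364). With the neighbourhood median removed it was 0.34 (adjusted p = 0.157), and the replicate block did not call it (0.51, adjusted p = 0.0834). Its partner ligase SYVN1 had 8.08 and 9.05 CPM in mutant and 10.3 and 9.84 CPM in wild-type libraries, with a log2 fold change of -0.23 (adjusted p = 0.389). SYVN1 overlaps the highly expressed FAU on the same strand, and how reads were divided between them was not tested.

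HERPUD1, a membrane organiser of the same complex, showed the widest gap between the wild-type libraries among the 35 genes. It had 66.6 and 65.7 CPM in mutant and 62.3 and 36.1 CPM in wild-type libraries. Wild-type replicate 1 was close to the mutant libraries and 1.72-fold above wild-type replicate 2, and the log2 fold change of 0.43 (SE 0.26) was not called (adjusted p = 0.323). It was 0.86 without wild-type replicate 1 and 0.08 without wild-type replicate 2.

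Of the ERAD lectins and mannosidases, OS9, the partner lectin of ERLEC1, had 178 and 177 CPM in mutant and 150.1 and 141 CPM in wild-type libraries (log2 fold change 0.29, SE 0.11, adjusted p = 0.159). EDEM2 had 25.9 and 24.2 CPM in mutant and 23.1 and 20.2 CPM in wild-type libraries. EDEM1 had 28.7 and 30.0 CPM in mutant and 28.8 and 28.8 CPM in wild-type libraries, and EDEM3 had 92.6 and 93.8 CPM in mutant and 88.9 and 92.0 CPM in wild-type libraries. These mannosidase-like genes that mark glycoproteins for disposal had log2 fold changes of 0.21, 0.03 and 0.04, none called. SELENOS, a selenoprotein that recruits the extraction ATPase, had 44.0 and 44.3 CPM in mutant and 45.6 and 64.8 CPM in wild-type libraries, the same order of libraries as the chaperones. Over the 12 ERAD genes the median was 0.04 (0.21 with total counts, where that of all genes was 0.17). In CPM 6 lay above (32.3% of all genes), 3 below (30.8%) and 3 overlapped. Per length, the 12 ERAD genes summed to 345 and 356 TPM in mutant and 277 and 278 TPM in wild-type libraries. The TPM scale was itself shifted towards the mutant, with a median of 0.12 over all tested genes on log2(TPM + 1).

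The translocation and export genes showed no call. SEC61A1, the pore of the translocation channel, had 237 and 236 CPM in mutant and 187 and 291 CPM in wild-type libraries, with the mutant libraries almost equal and between the wild-type ones. RUVBL1, which overlaps SEC61A1 on the other strand, had 181 and 160 CPM in mutant and 193 and 281 CPM in wild-type libraries. SEC61B, a small subunit of the channel, had 59.7 and 56.7 CPM in mutant and 65.3 and 86.9 CPM in wild-type libraries (log2 fold change -0.39, SE 0.17, adjusted p = 0.189). SEC24D, a cargo adaptor of COPII vesicles, had 16.3 and 16.5 CPM in mutant and 17.0 and 19.4 CPM in wild-type libraries (-0.16, SE 0.14, adjusted p = 0.488). All 3 were higher in wild-type replicate 2 than in replicate 1. Their median was -0.16, and 0.02 with total counts.

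**Figure D3:**
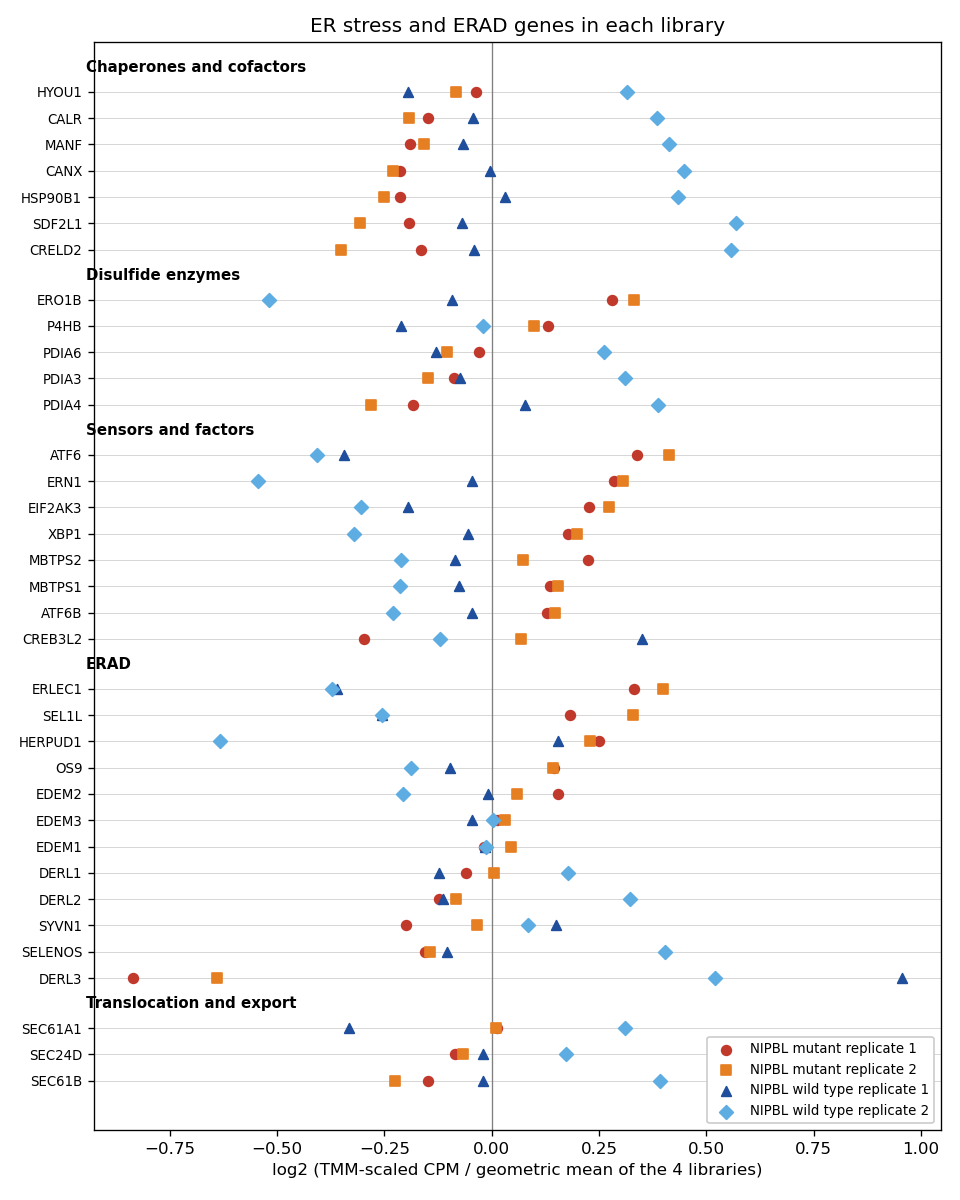
Level of each of the 35 genes in each library, as log2 of TMM-scaled CPM over the geometric mean of the 4 libraries (symbols, libraries; rows grouped by role). Among the chaperones wild-type replicate 2 lies alone on the right, and for 7 of the 8 sensors and factors the mutant libraries lie right of both wild-type libraries.

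The rule also groups the genes by arm, with sensors and targets in each of the ATF6 and IRE1 arms. In the ATF6 arm (15 genes), the 5 genes of ATF6, its relatives and its proteases had a median log2 fold change of 0.29, with 4 above and none below in CPM, where 32.3% of all genes lay above and 30.8% below. With the neighbourhood median removed that median was 0.16. The 10 target genes of that arm had a median of -0.36 (-0.37 with the neighbourhood median removed), with 2 above (HERPUD1 and SEL1L) and 6 below in CPM. Of the targets, 4 lay below with total counts (19.4% of all genes) and 2 in TPM (16.8%). Leaving out wild-type replicate 1 gave medians of 0.35 for the sensors and -0.59 for the targets, and leaving out wild-type replicate 2 gave 0.22 and -0.12. In the IRE1 arm (12 genes), ERN1 and XBP1 had 0.57 and 0.37, while the 10 target genes had a median of -0.11. Without wild-type replicate 1 that target median was -0.24 and without wild-type replicate 2 it was 0.02, so its sign depended on the wild-type libraries. With total counts it was 0.07, which lay below the median of all tested genes on that scale, 0.17. EIF2AK3 was the 1 member assigned to the PERK arm, and none of the 35 was assigned to that arm as a target. Whether sensors and targets differed from each other was not tested.

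Compared singly, wild-type replicate 2 differed from replicate 1 at many of these genes, as it did over all tested genes. It was above wild-type replicate 1 at 19 of the 35 genes (48.2% of all tested genes). In wild-type replicate 2, 13 of the 35 genes were at least 1.25-fold higher than in wild-type replicate 1 (20.4% of all tested genes) and 5 were at least 1.25-fold lower (29.1%). The 13 include all 7 chaperones, whose median gap was 0.48 on the log2 scale, together with PDIA3, PDIA6, DERL2, SELENOS, SEC61A1 and SEC61B. The 5 lower ones were HERPUD1, ERN1, CREB3L2, DERL3 and ERO1B. The mutant pair differed far less, with a largest gap of 0.36 (CREB3L2) against 0.79 (HERPUD1) for the wild-type pair. All 8 sensor and factor genes were lower in wild-type replicate 2 than in replicate 1, with a median gap of -0.16. Of the 10 genes with an ERSE or ERSE-II, CALR, CANX, CRELD2, HSP90B1, HYOU1, PDIA6 and SDF2L1 were higher in wild-type replicate 2 than in replicate 1 and had negative log2 fold changes. XBP1, HERPUD1 and ERO1B were lower there and had positive ones, though their windows hold the same motifs. Wild-type replicate 2 enters both the replicate gap and the fold change, which pushes them to opposite signs. That the signs were opposite is therefore not a separate result.

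**Figure D4:**
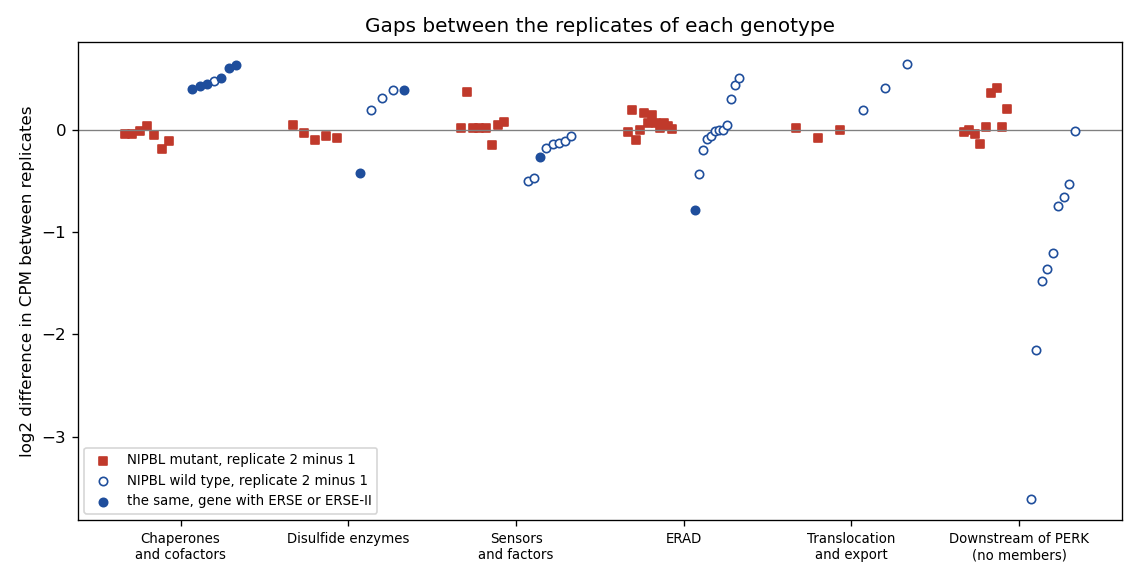
Log2 difference in CPM between replicate 2 and replicate 1 of each genotype, 1 point per gene, for the 5 roles and for 9 genes downstream of PERK that are not among the 35 (red squares, mutant; blue circles, wild type; filled circles, genes with an ERSE or ERSE-II). Chaperone gaps in wild type lie above 0 and those of genes downstream of PERK lie at or below 0, down to -3.61 for CHAC1, while the widest gap of the mutant pair is 0.41 (TRIB3).

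Of 35 further genes of the pathway that are not among the members, 2 were called higher and none lower by edgeR, near the 3.71% and 2.1% of all tested genes. At an unadjusted p under 0.05 stood 12 of them, against 29.8% of all tested genes. Both called genes are among those listed here as downstream of PERK, and whether PERK was involved was not tested. TRIB3, a pseudokinase induced by ATF4, had 86.8 and 116 CPM in mutant and 32.3 and 20.4 CPM in wild-type libraries. It rose by a log2 fold change of 1.94 (SE 0.27, adjusted p = 0.0306), and leaving out wild-type replicate 1 (2.29, adjusted p = 0.108) or 2 (1.64, adjusted p = 0.182) ended the call, with the spread then from the mutant pair alone. PPP1R15A, the phosphatase subunit that reverses eIF2 phosphorylation, had 33.1 and 38.1 CPM in mutant and 20.6 and 20.3 CPM in wild-type libraries. It rose by 0.80 (SE 0.13, adjusted p = 0.0369), and the call was lost with the neighbourhood median removed (0.63, adjusted p = 0.0660) and without mutant replicate 1 (0.89, adjusted p = 0.0952) or 2 (0.69, adjusted p = 0.286).

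The other genes listed as downstream of PERK were not called. ATF3, a stress-induced transcription factor, had 58.2 and 74.5 CPM in mutant and 35.7 and 21.3 CPM in wild-type libraries, with both mutant libraries above (log2 fold change 1.22, SE 0.27, adjusted p = 0.0611). Others differed widely between the wild-type libraries. DDIT3, the stress factor CHOP, had 38.3 and 37.3 CPM in mutant and 23.5 and 8.40 CPM in wild-type libraries. CHAC1, a glutathione-degrading enzyme induced by ATF4, had 28.6 and 28.2 CPM in mutant and 20.2 and 1.61 CPM in wild-type libraries. Asparagine synthetase, ASNS, had 262 and 261 CPM in mutant and 286 and 64.4 CPM in wild-type libraries. In DDIT3, CHAC1 and ASNS the mutant libraries lay nearer to wild-type replicate 1. All 9 genes listed as downstream of PERK were lower in wild-type replicate 2 than in replicate 1, 8 of them by at least 1.25-fold. Their median log2 fold change of 0.80 was 1.62 without wild-type replicate 1 and 0.49 without wild-type replicate 2. ATF4 itself had 601 and 613 CPM in mutant and 718 and 496 CPM in wild-type libraries.

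Most of the remaining pathway genes were, like the chaperones, higher in wild-type replicate 2. HSPA5, the ER HSP70 known as BiP, had 188 and 203 CPM in mutant and 202 and 261 CPM in wild-type libraries (log2 fold change -0.24, adjusted p = 0.357). Of 9 folding genes, 7 were higher in wild-type replicate 2 than in replicate 1, as were 8 of 9 ERAD genes and 6 of 7 translocation genes. VCP, the ATPase that extracts ERAD substrates, had 273 and 242 CPM in mutant and 363 and 567 CPM in wild-type libraries (-0.85, SE 0.23, adjusted p = 0.0833). Neither was called.

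Per length, CANX, CALR and HSP90B1 had the highest levels of the 35 genes. CANX led with 378 and 366 TPM in mutant and 382 and 493 TPM in wild-type libraries. CALR followed with 353 and 347 TPM in mutant and 335 and 427 TPM in wild-type libraries, and HSP90B1 with 308 and 300.5 TPM in mutant and 328 and 401 TPM in wild-type libraries. This order held within each library, and neighbours in it overlapped in wild type only when its libraries were pooled. Among the genes of low level, ERN1 had 3.82 and 5.62 TPM in mutant and 3.77 and 2.86 TPM in wild-type libraries, SYVN1 had 3.91 and 3.84 TPM in mutant and 3.79 and 3.40 TPM in wild-type libraries, and DERL3 had 1.53 and 1.62 TPM in mutant and 4.57 and 3.33 TPM in wild-type libraries. The whole set summed to 2719 and 2665 TPM in mutant and 2480 and 2985 TPM in wild-type libraries, so the mutant sums lay between the wild-type ones.

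Effective lengths move when the mix of isoforms assigned by RSEM moves. Both mutant libraries were shorter than both wild-type libraries at 7 of the 35 genes (13.8% of all tested genes) and longer at 7 (17.1%). EIF2AK3 was among the shorter ones, as given above, and so was EDEM1, which removes misfolded glycoproteins, at 3753 and 3627 bases in mutant and 4074 and 4421 bases in wild-type libraries. SEC24D was among the longer ones, at 2805 and 2807 bases in mutant and 2442 and 2497 bases in wild-type libraries. EDEM1 and SEC24D were singled out after their values were seen, no test was made of these lengths, and gene-level tables do not show which isoforms were involved.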

How the data were processed

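Per the labels' protocols, ribosomal RNA was removed from total RNA of 293FT cells before directional libraries were prepared. The authors used STAR 2.7.3a and RSEM 1.3.1 with hg38, per the submitters' processing notes. For the counting, strand setting and annotation release are both not given in the sources used. Per the file headers, the deposited tables hold expected counts (reads per gene as estimated by RSEM), TPM (per length, scaled to a fixed total) and effective lengths. The deposited FPKM values were not used.

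Expected counts were rounded and tested with edgeR 4.0.16 (R 4.3.3; filterByExpr, TMM, robust quasi-likelihood, group as the only term) over 18984 genes. Levels are TMM-scaled CPM. The SE of an edgeR log2 fold change was derived from the test, as its absolute value over the square root of the F statistic. At 31545743 to 33161120 counts per library, precision is set by the 2 replicates, since an exact permutation test of 2 against 2 libraries cannot go below p = 0.333. Identifiers were matched to GENCODE 29 (GRCh38; 57836 of 58174 found). The members, their roles and arms, the further pathway genes, the markers and the rule that all 35 members are named were chosen with earlier results of these data known. Alternatives were other scalings, filters, DESeq2 1.42.0, limma 3.58.1 (voom, or trend on log2(TPM + 1) and log2(TPM + 0.1)), effective length offsets, removal of the median of the 25 neighbouring genes on each side, a replicate block and leaving out each library.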

Additional observations from a re-analysis of the deposited data

How the results depend on the processing

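The members called higher (2) and lower (1) moved with the setting. Called higher were 4 with total counts, 4 on log2(TPM + 1), 5 with DESeq2 and 0 with the neighbourhood median removed. Called lower were 0 with total counts, with upper-quartile scaling, with the stricter filter, with the neighbourhood median removed and on both TPM scales. Leaving out 1 library gave 0 to 13 higher and 0 to 17 lower. The high counts came without wild-type replicate 1 (13 and 17) or 2 (12 and 7), where the spread comes from the closer mutant pair alone, and are not counted as support.

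The member median of -0.06 was 0.12 with total counts, 0.16 on log2(TPM + 1) and 0.16 on log2(TPM + 0.1), and -0.22 to 0.07 when 1 library was left out. The ATF6 arm median of -0.15 was -0.056 with upper-quartile scaling, 0.033 with total counts, -0.26 with the neighbourhood median removed, 0.026 on log2(TPM + 1), 0.027 on log2(TPM + 0.1) and -0.35 to 0.0598 when 1 library was left out. The IRE1 arm median of -0.04 was 0.14 with total counts, 0.18 on each TPM scale and -0.22 to 0.046 when 1 library was left out. EIF2AK3 for the PERK arm, at 0.50, had 0.58 with upper-quartile scaling, 0.67 with total counts, 0.69 with effective length offsets, 0.37 with the neighbourhood median removed, 0.81 on log2(TPM + 1), 0.88 on log2(TPM + 0.1) and 0.44 to 0.54 when 1 library was left out. The median of all tested genes was 0.17 with total counts, 0.12 on log2(TPM + 1), 0.18 on log2(TPM + 0.1) and 0.08 with upper-quartile scaling; the cause of the other shifts was not tested.

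Signs turned only at genes that were not called in the test reported. With total counts HYOU1 had 0.039, PDIA6 0.033, DERL1 0.12, SEC61A1 0.17 and SEC24D 0.019. On log2(TPM + 1) and log2(TPM + 0.1) the values were 0.026 and 0.027 for HYOU1, 0.0572 and 0.0575 for PDIA6, 0.087 and 0.11 for SYVN1, 0.20 and 0.21 for DERL1, 0.0581 and 0.0597 for DERL2, and 0.16 and 0.16 for SEC61A1. With upper-quartile scaling DERL1 had 0.028 and SEC61A1 0.0825. With the neighbourhood median removed EDEM1 had -0.064, EDEM3 -0.067, DERL1 0.11 and SEC24D 0.13. SEC61A1 also had 0.042 with the stricter filter and 0.0222 with limma-voom. When 1 library was left out, the range was -0.39 to 0.13 for HYOU1, -0.35 to 0.0598 for PDIA6, -0.46 to 0.0021 for CREB3L2, -0.005 to 0.056 for EDEM1, -0.22 to 0.094 for DERL1, -0.44 to 0.0085 for DERL2 and -0.31 to 0.34 for SEC61A1.

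Same-numbered libraries of the genotypes did not deviate together (correlation -0.0593). Because the wild-type pair lay far wider apart than the mutant pair, this value cannot decide whether the numbers pair the libraries. With the replicate block 3 members were called higher (ERO1B added at 0.61, edgeR adjusted p = 0.0463) and 1 lower, SEC61A1 had 0.0216, and over all tested genes 1470 were called higher and 809 lower, against 704 and 399 without it. Over all tested genes DESeq2 called 1294 higher and 1206 lower, total counts 1112 and 274, no filter 1132 and 786, the stricter filter 315 and 238, the neighbourhood median removed 443 and 167, log2(TPM + 1) 818 and 119, and log2(TPM + 0.1) 678 and 110.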
